A study of Rattus norvegicus with 20 samples.

Results

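The genes described here encode the proteasome, and they were every gene whose single symbol in the array's annotation began with Psma, Psmb, Psmc, Psmd or Psme, apart from the immunoproteasome genes Psmb8, Psmb9 and Psmb10. The rule found 38 of the 14218 genes that the array names with a single symbol, and each gene was represented by the probe set with the highest mean over all arrays. Of these, 13 encode the core particle and 20 the regulatory particle or its assembly factors. A further 3 encode activators, and 2 only carry a subunit's name (Psmc3ip and Psme3ip1). All 38 were above the limit set on low values (log2 7.14), which 18625 probe sets passed. The probe sets for Psmb6 and Psme3 carry several symbols, so both genes were not analysed here. A probe set that names both Psma3 and Psma3l was left out for the same reason.

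Transcripts were measured on Affymetrix arrays in 20 alcohol-preferring (P) rats, a line selectively bred for ethanol drinking, and the tissue was the central amygdala (central nucleus, CeA). In the ethanol group, 10 rats had access to 15% and 30% ethanol in adolescence, and in the water group 10 rats had water only. Each array held the RNA of 1 numbered animal, and both groups were of the same line. Sex, ethanol intake, age at dissection and the interval since the last access are not given in the labels used here. The p-values below measure the spread between these animals. The values are log2 signals, for which a difference of 0.25 is a fold of 1.19.

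The proteasome is the protease that degrades proteins tagged with ubiquitin. Its core particle is a barrel of stacked rings, in which outer alpha subunits form a gate and inner beta subunits hold the cutting sites, and its regulatory particle recognises, unfolds and feeds in the substrate through a base of ATPases and a lid that removes ubiquitin. In neurons, proteasome activity helps to set the amount of synaptic proteins, and when proteasomes fail the transcription factor Nfe2l1 raises most subunit genes together.

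The labelled tissue was checked against marker lists. All 9 central amygdala neuron markers on the array were above the limit, and so were 3 of 5 markers of cortical and basolateral excitatory neurons, whose mean ran from 6.52 to 9.38 over the animals, with Tbr1 and Emx1 below the limit. Mean pan-neuronal marker level was 12.27 ± 0.11 in ethanol and 12.16 ± 0.12 in water (SD, n = 10 each), and mean myelin marker level was 12.46 ± 0.47 in ethanol and 12.81 ± 0.37 in water. The choroid plexus and ependyma level was 7.77 ± 1.49 in ethanol and 9.19 ± 1.68 in water, the meningeal level 8.34 ± 0.60 and 8.83 ± 0.93, and the astrocyte level 12.19 ± 0.10 and 12.31 ± 0.10. Microglia, endothelial, central amygdala and cortical lists differed by 0.12 or less. The part of these marker levels in the results below was not tested beyond the fits with the pan-neuronal and myelin levels as covariates. In bulk tissue, fewer cells of a type and less RNA per cell cannot be told apart. The 3 arrays with the lowest mean correlation with the others were water animal 18, ethanol animal 5 and water animal 15. Water animal 15 also had the highest 3′ to 5′ signal ratio of the control transcripts (log2 1.94, against 1.15 to 1.73 in the other 19 animals), and water animal 18 had the highest choroid plexus and ependyma marker level (11.88) and the highest meningeal marker level (10.96). Most results that rest on water animal 15 or water animal 18 are also given without that animal.

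The 38 genes lie on 16 chromosomes, with 5 on chromosome 1, 6 on chromosome 10 and 5 on chromosome 15. Promoters of 34 of them were in the RefSeq table (assembly GRCr8), which held none for Psma7, Psmd6, Psmd12 and Psmd14. The 250 bases before the start are printed for 3 genes, chosen after their values were seen: Psma2, the core gene that tracked the other core genes most closely over the 20 animals, Psma3, a core gene that did not track them, and Psmb5, a catalytic subunit gene. They lie at chr17:55260442-55260691 on the minus strand, chr6:95219499-95219748 on the plus strand and chr15:32047380-32047629 on the minus strand. Capitals mark the motifs searched.
Psma2: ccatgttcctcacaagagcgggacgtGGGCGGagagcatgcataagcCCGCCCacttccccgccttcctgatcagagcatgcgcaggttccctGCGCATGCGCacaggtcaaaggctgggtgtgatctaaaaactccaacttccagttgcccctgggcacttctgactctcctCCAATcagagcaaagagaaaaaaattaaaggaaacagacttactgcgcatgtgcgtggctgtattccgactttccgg
Psma3: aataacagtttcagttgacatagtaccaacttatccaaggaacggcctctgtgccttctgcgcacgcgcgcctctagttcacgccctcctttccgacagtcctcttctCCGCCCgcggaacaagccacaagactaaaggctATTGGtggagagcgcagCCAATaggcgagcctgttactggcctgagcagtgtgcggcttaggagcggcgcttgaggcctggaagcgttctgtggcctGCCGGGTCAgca
Psmb5: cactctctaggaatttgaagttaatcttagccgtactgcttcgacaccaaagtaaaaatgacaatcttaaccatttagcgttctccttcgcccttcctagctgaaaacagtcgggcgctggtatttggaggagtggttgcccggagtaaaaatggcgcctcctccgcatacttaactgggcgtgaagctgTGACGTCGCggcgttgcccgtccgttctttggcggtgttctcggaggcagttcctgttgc
The Psma2 stretch held 2 GC boxes (CCGCCC or its reverse), a CCAAT box and the palindrome that nuclear respiratory factor 1 binds, GCGCA followed at once by its reverse complement. That factor is a different protein from Nfe2l1. In the Psma3 stretch a GC box, 2 CCAAT boxes on opposite strands and, beginning 12 bases before the start, a match to the antioxidant response element TGACNNNGC on the opposite strand were found. The Psmb5 stretch held the same element, as TGACGTCGC, beginning 60 bases before the start, and no GC box or CCAAT box. This element is the site through which Nfe2l1 acts on proteasome genes.

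Both strands of the 34 promoters were searched for 8 motifs, and the same was done for 33469 rat promoters of the same length. The antioxidant response element TGACNNNGC was in 6 of 34 (17.6%, against 10.1% of all promoters), namely those of Psma3, Psmb2, Psmb5, Psmd1, Psmd9 and Psme4. The GC box CCGCCC was in 24 (70.6% against 30.5%), and the CCAAT box in 18 (52.9% against 34%). The ETS site CCGGAAG was in 11 (32.4% against 7.27%), among them those of Psmc1, Psmc2, Psmc6, Psmd4, Psmd11 and Psmd13 of the regulatory particle. The E-box CACGTG was in 5 (14.7% against 5.59%), the YY1 site AAGATGGCG in 2 (5.88% against 0.693%) and the nuclear respiratory factor 1 palindrome in Psma2 alone (2.94% against 0.762%). TATAAA was in 4 (11.8% against 12.9%). These are letter matches in a fixed window, and binding was not measured.

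The comparison of the groups asks whether access to ethanol in adolescence went with a different level of proteasome transcripts. None of the 38 genes differed at an adjusted p under 0.05 (limma with Benjamini-Hochberg adjustment over all probe sets tested, two-sided), where 4 of 18625 probe sets did (0.0215%). At an unadjusted p under 0.05, 2 of the 38 genes (5.26%) were called, Psma1 and Psmd5, both higher in ethanol, against 12.8% of all probe sets tested (7.37% higher and 5.48% lower). The members' share was below the background. The 2 groups overlapped for all 38 genes, and 0.0268% of all probe sets had groups that did not overlap.

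Counted by direction alone, 27 of the 38 genes had the higher mean in ethanol (71.1%), against 57.8% of all probe sets. The median difference of the 38 was 0.03 on the log2 scale, against 0.02 for all probe sets. The core particle had 8 of 13 higher (median 0.02), the regulatory particle 16 of 20 (median 0.05) and the activators 1 of 3 (median -0.06). Over the 38 genes the tilt was not there without water animal 15. Then 21 of 38 were higher (55.3%, median 0.02), against 58.4% of all probe sets (median 0.02), with 6 of 13 in the core (median -0.01) and 13 of 20 in the regulatory particle (median 0.03), and 1 gene was called at an unadjusted p under 0.05, where 13.3% of all probe sets were. The difference was smaller in size for 15 of 20 regulatory genes when that animal was left out, and 8 of the 38 changed sign.

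**Figure D1:**
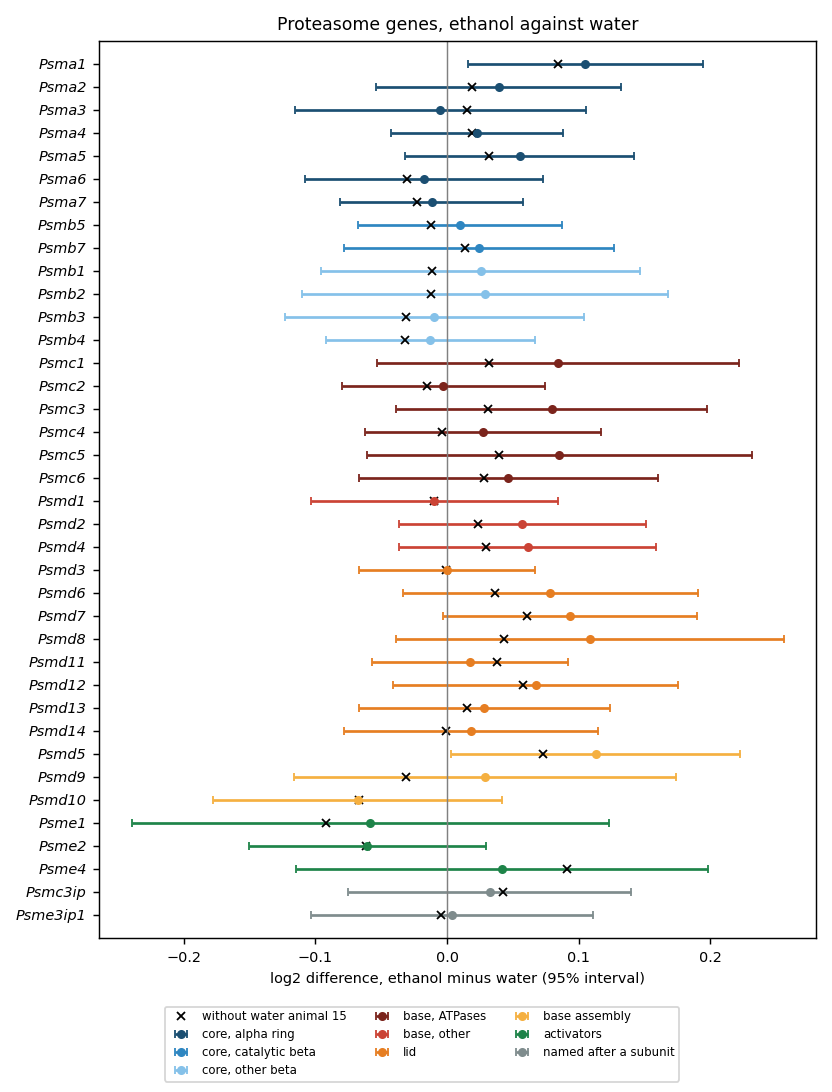
Log2 difference between ethanol and water (10 animals each) for each of the 38 genes, with its 95% interval from limma as bars and the difference without water animal 15 as crosses; colours give the role in the particle. Only the intervals of Psma1 and Psmd5 lie above 0, and most regulatory particle genes have a cross nearer to 0 than their point.

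Intervals give the sizes that these animals allow. Standard errors ran from 0.03 to 0.09, and the 95% interval lay within 0.25 of 0 for 37 of 38 genes (a fold of 1.19) and within 0.15 for 20. The lowest bound was that of Psme1 at -0.24 (a fold of 0.847) and the highest that of Psmd8 at 0.26 (a fold of 1.19).

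Alpha subunits form the outer rings of the core and its gate. Psma1 ranged from 11.64 to 11.85 (median 11.74) in ethanol and from 11.45 to 11.75 (median 11.66) in water. All 10 ethanol animals lay above the water mean, yet the groups overlapped, with water animal 15 lowest and ethanol animal 7 highest. The difference was 0.11 ± 0.04 (SE, n = 10 each; limma p = 0.0232, adjusted p = 0.333). It was 0.08 (p = 0.0459) without water animal 15. In the 3 runs of the accession order it was 0.13, 0.11 and 0.05. Psma5 ran from 12.36 to 12.57 (median 12.48) in ethanol and from 12.21 to 12.56 (median 12.45) in water, a difference of 0.06 ± 0.04 (SE; limma adjusted p = 0.577) that fell to 0.03 without water animal 15. Again that animal was lowest, and the other 9 water animals overlapped the ethanol animals. The other 5 alpha genes differed by -0.02 to 0.04.

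Of the cutting subunits, Psmb5 has the chymotrypsin-like site and Psmb7 the trypsin-like site. Psmb5 ran from 13.20 to 13.34 (median 13.26) in ethanol and from 13.05 to 13.39 (median 13.26) in water. The ethanol animals all lay inside the water range, whose lower end was water animal 15. The difference was 0.01 ± 0.04 (SE; limma adjusted p = 0.929), and -0.01 without that animal. Psmb7 ran from 11.20 to 11.51 (median 11.39) in ethanol and from 11.11 to 11.46 (median 11.34) in water, with water animal 18 lowest and ethanol animal 3 highest. Its difference was 0.02 ± 0.05 (SE; limma adjusted p = 0.862). It was 0.01 without water animal 15 and -0.00095 without water animal 18. The 95% intervals were -0.07 to 0.09 for Psmb5 and -0.08 to 0.13 for Psmb7.

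Psmb1 and Psmb2 are beta subunits without a cutting site of their own. Psmb1 ran from 13.06 to 13.38 (median 13.12) in ethanol and from 12.80 to 13.36 (median 13.13) in water. Psmb2 ran from 12.22 to 12.63 (median 12.38) in ethanol and from 12.02 to 12.60 (median 12.42) in water. For both genes the water median was the higher one while the water mean was the lower one, with water animal 15 lowest and ethanol animal 7 highest. The differences were 0.03 ± 0.06 for Psmb1 (SE; limma adjusted p = 0.879) and 0.03 ± 0.07 for Psmb2 (SE; limma adjusted p = 0.882), and both became -0.01 without water animal 15. Psmb3 and Psmb4 differed by -0.01 each.

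The base ATPases unfold the substrate, and the tails of Psmc1 and Psmc3 dock into the alpha ring and help to open its gate. Psmc1 ran from 11.72 to 12.08 (median 11.83) in ethanol and from 11.31 to 12.02 (median 11.81) in water. Psmc3 ran from 11.48 to 11.71 (median 11.59) in ethanol and from 11.08 to 11.68 (median 11.56) in water. For each gene 9 of 10 ethanol animals were above the water mean, but that mean was pulled down by water animal 15, which was far below the other 9. The difference was 0.08 ± 0.07 for Psmc1 (SE; limma adjusted p = 0.591) and 0.08 ± 0.06 for Psmc3 (SE; limma adjusted p = 0.549). Without water animal 15 both were 0.03. The remaining ATPases, Psmc2, Psmc4, Psmc5 and Psmc6, differed by 0.00, 0.03, 0.09 and 0.05.

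Psmd2 and Psmd4, which bind ubiquitin or its shuttle proteins, and Psmd1, a scaffold, complete the base. Psmd2 ran from 11.62 to 11.83 (median 11.68) in ethanol and from 11.33 to 11.72 (median 11.67) in water. Psmd4 ran from 11.14 to 11.34 (median 11.22) in ethanol and from 10.89 to 11.32 (median 11.17) in water. Water animal 15 was lowest for both. The ethanol and water medians lay close together for Psmd2, while for Psmd4 the ethanol median was the higher one. The differences were 0.06 ± 0.05 for Psmd2 (SE; limma adjusted p = 0.592) and 0.06 ± 0.05 for Psmd4 (SE; limma adjusted p = 0.581), and 0.02 and 0.03 without that animal. Psmd1 differed by -0.01.

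The lid holds Psmd14, the enzyme that removes ubiquitin chains, with Psmd7 as its partner, and Psmd8, one of the last subunits to join. Psmd7 ran from 11.82 to 12.02 (median 11.93) in ethanol and from 11.55 to 11.98 (median 11.88) in water, with 9 of 10 ethanol animals above the water mean. Psmd8 ran from 11.34 to 11.53 (median 11.47) in ethanol and from 10.76 to 11.56 (median 11.43) in water, so its highest and its lowest animals were both in the water group. The differences were 0.09 ± 0.05 for Psmd7 (SE; limma p = 0.0577, adjusted p = 0.401) and 0.11 ± 0.07 for Psmd8 (SE; limma adjusted p = 0.509). They were 0.06 and 0.04 without water animal 15, which was lowest for both. Psmd14 ran from 11.72 to 12.01 (median 11.94) in ethanol and from 11.72 to 11.99 (median 11.90) in water, nearly the same range. Its difference was 0.02 ± 0.05 (SE; limma adjusted p = 0.896), and 0.00 without water animal 15. Psmd14 has 2 other probe sets, which gave 0.12 ± 0.07 and 0.06 ± 0.07 (SE; limma adjusted p = 0.430 and 0.739), and 0.10 and 0.00 without that animal.

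Psmd5, Psmd9 and Psmd10 are chaperones that help to assemble the base and leave before it is finished. Psmd5 ran from 10.49 to 10.74 (median 10.60) in ethanol and from 10.12 to 10.64 (median 10.49) in water. All 10 ethanol animals were above the water mean, with ethanol animal 7 highest and water animal 15 far lowest. The difference was 0.11 ± 0.05 (SE, n = 10 each; limma p = 0.0445, adjusted p = 0.378), and 0.07 (p = 0.0755) without water animal 15. In the 3 runs of the accession order it was 0.17, 0.09 and 0.05. Psmd10 went the other way, from 11.07 to 11.38 (median 11.30) in ethanol and from 11.14 to 11.62 (median 11.31) in water. Only 2 ethanol animals were above the water mean, and water animal 17 was highest. Its difference was -0.07 ± 0.05 (SE; limma adjusted p = 0.586), the same without water animal 15. Psmd9 had its lowest value, 8.85, in water animal 15, with the next water animal at 9.32, and its difference of 0.03 became -0.03 without that animal.

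Psme1 and Psme2 form an activator that interferon raises and that caps the core in place of the regulatory particle. Psme1 ran from 10.68 to 11.26 (median 10.86) in ethanol and from 10.66 to 11.51 (median 10.91) in water. Psme2 ran from 10.66 to 10.92 (median 10.82) in ethanol and from 10.78 to 11.11 (median 10.86) in water. Water animal 18 was the highest of all 20 for both, and the rest of the 2 groups overlapped. The differences were -0.06 ± 0.09 for Psme1 (SE; limma adjusted p = 0.793) and -0.06 ± 0.04 for Psme2 (SE; limma adjusted p = 0.551). Without water animal 18 they were 0.00 for Psme1 and -0.03 for Psme2, and the activators' median was 0.00. Water animal 18 was also highest for the immunoproteasome genes Psmb8 and Psmb9. It was highest for 3 of the 38 genes (7.9%) and for 12.7% of all probe sets tested. The part of its choroid plexus and meningeal marker levels in its activator and immunoproteasome values was not tested. Psme4, a nuclear activator, was highest in water animal 15 and lowest in ethanol animal 3 (10.17). Its difference of 0.04 became 0.09 without water animal 15.

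Neither of the genes that share a subunit's name is a subunit. Psmc3ip, a factor of meiotic recombination, ran from 8.53 to 8.89 (median 8.73) in ethanol and from 8.54 to 8.77 (median 8.71) in water, a difference of 0.03 ± 0.05 (SE; limma adjusted p = 0.813). Psme3ip1, whose protein binds the activator Psme3, ran from 10.27 to 10.69 (median 10.41) in ethanol and from 10.34 to 10.53 (median 10.45) in water, a difference of 0.00 ± 0.05 (SE; limma adjusted p = 0.984). In both, the highest and the lowest animals were ethanol animals.

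For 9 of the 38 genes the array has other probe sets, 14 in all, and 9 of these in 6 genes were above the limit on low values. Their differences ran from -0.04 to 0.18, with 6 of 9 in the direction of the chosen probe set. None passed an adjusted p under 0.05, and 0 of 9 had an unadjusted p under 0.05 (limma), against 0.0215% and 12.8% of all probe sets. The largest was a second Psme4 probe set, at 0.18 ± 0.09 (SE; limma adjusted p = 0.418).

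Averaged within each animal, the core particle genes stood at 12.37 ± 0.05 in ethanol and 12.35 ± 0.08 in water (SD, n = 10 each). Ethanol animals ran from 12.31 to 12.44 and water animals from 12.19 to 12.49, so both the highest and the lowest core values were in the water group. The regulatory particle genes stood at 11.39 ± 0.04 in ethanol and 11.34 ± 0.09 in water, a difference of 0.05. Without water animal 15 the water values were 12.37 ± 0.06 for the core and 11.37 ± 0.04 for the regulatory particle (n = 9), which left differences of 0.00 and 0.02. The activators stood at 10.77 ± 0.12 in ethanol and 10.80 ± 0.09 in water.

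**Figure D2:**
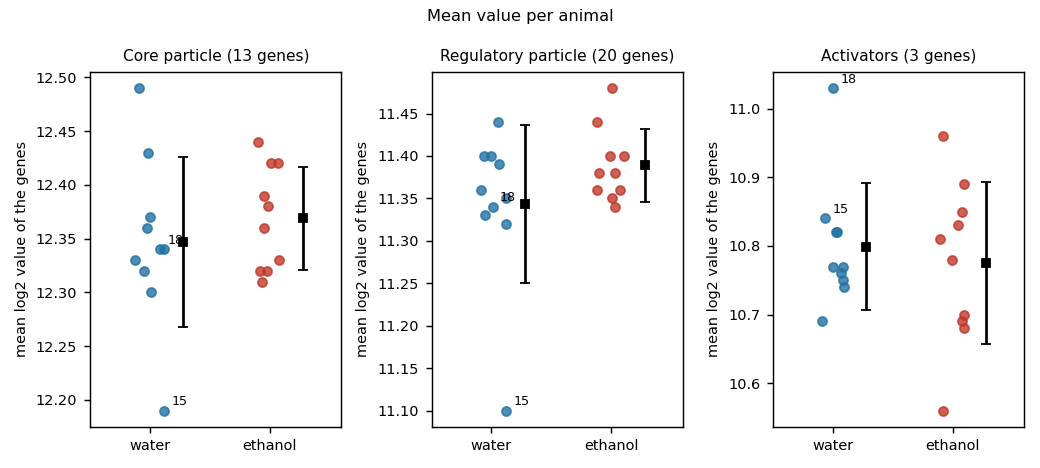
Mean log2 value of the core particle, regulatory particle and activator genes in each animal (points) with the mean and SD of each group (squares and bars, n = 10 each); the vertical axes do not start at 0. Water animal 15 lies below all others for the core (12.19) and the regulatory particle (11.10), and water animal 18 lies above all others for the activators (11.03).

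Water animal 15 was the lowest of the 20 for 22 of the 38 genes. That was 8 of 13 core genes and 13 of 20 regulatory genes, where it was lowest for 16.6% of all probe sets tested. Of other genes it was lowest for 17 of 43 cytosolic ribosomal protein genes and 22 of 70 oxidative phosphorylation genes. Among the regulatory genes the gap was widest for Psmd8, at 10.76 with the next water animal at 11.25, and for Psmd9. The chosen probe sets of Psma3, Psmd11 and Psme4 were instead highest in this animal, 3 of 38 (7.9%) against 12.8% of all probe sets tested. Other probe sets above the limit did not share this for Psmd11, whose second one was highest in ethanol animal 7, or for Psme4, whose other ones were lowest in water animal 15 in 1 case and highest in water animal 18 in the other. The part of its high 3′ to 5′ ratio in these low values was not tested.

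**Figure D3:**
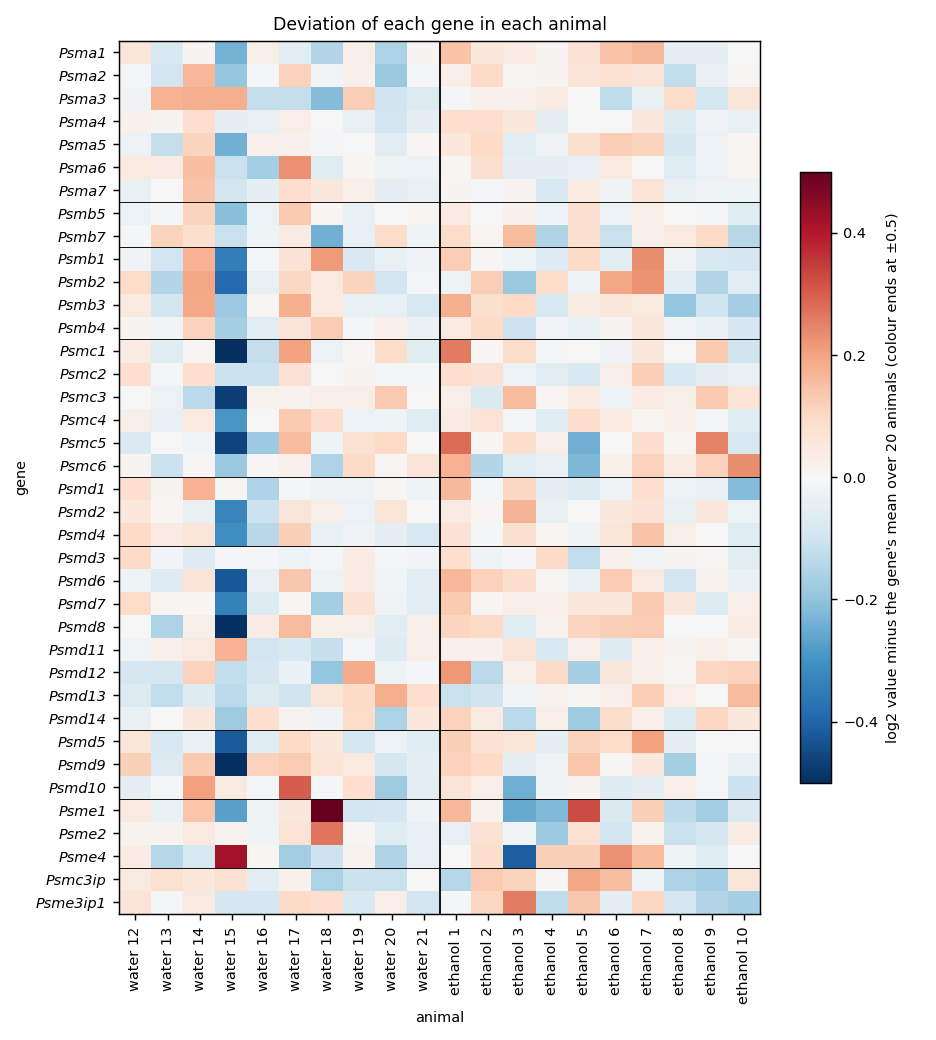
Deviation of each gene in each animal from that gene's mean over the 20 animals, in log2 units, with colours ending at 0.5 to either side and horizontal lines between roles. Water animal 15 is a mostly blue column from the core to the assembly genes, interrupted at Psma3 and Psmd11, and water animal 18 is dark red at Psme1 and red at Psme2.

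How far the genes moved together from animal to animal was described by Pearson's r over the 10 animals of each group, for every pair. Pairs share arrays and genes, so no test is given. The 3 runs of the accession order were pooled. In the third run the core mean was 12.32 and 12.31 in the ethanol animals and 12.30 and 12.33 in the water animals. Each of these was below its group's mean (12.37 in ethanol and 12.35 in water). Core genes correlated with a median r of 0.46 over 78 pairs in ethanol and 0.60 in water, where all pairs of 10159 genes had medians of 0.03 and 0.01. Regulatory genes correlated less, with medians of 0.19 in ethanol and 0.41 in water over 190 pairs, and core with regulatory genes had medians of 0.20 and 0.48 over 260 pairs. Without water animal 15 the water medians were 0.50 within the core, 0.22 within the regulatory particle and 0.28 between them. The medians of the regulatory genes in the 9 other water animals were thus near those of the ethanol animals. Whether covariation differs between the groups was not tested.

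Within the particle the beta subunits had a median r of 0.40 in ethanol and 0.81 in water (0.54 without water animal 15), and the alpha subunits 0.57 and 0.43 (0.43 without it). The 6 ATPases had 0.26 in ethanol and 0.70 in water, but 0.25 without that animal. The 8 lid genes had 0.07 in ethanol and 0.22 in water (0.06 without it). Activators and core genes had a median of 0.41 in ethanol and 0.11 in water (0.20 without it). For comparison, ribosomal protein genes had medians of 0.55 and 0.48 among themselves (0.65 without water animal 15) and 0.33 and 0.46 with the core (0.55 without it). With the regulatory genes they had 0.04 in ethanol and 0.23 in water (0.18 without it). Oxidative phosphorylation genes had 0.55 and 0.50 among themselves (0.59 without it), 0.32 and 0.36 with the core (0.42 without it) and 0.14 and 0.18 with the regulatory genes (0.16 without it). In ethanol, and in water without animal 15, both lists thus had a higher median within themselves than the core had.

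**Figure D4:**
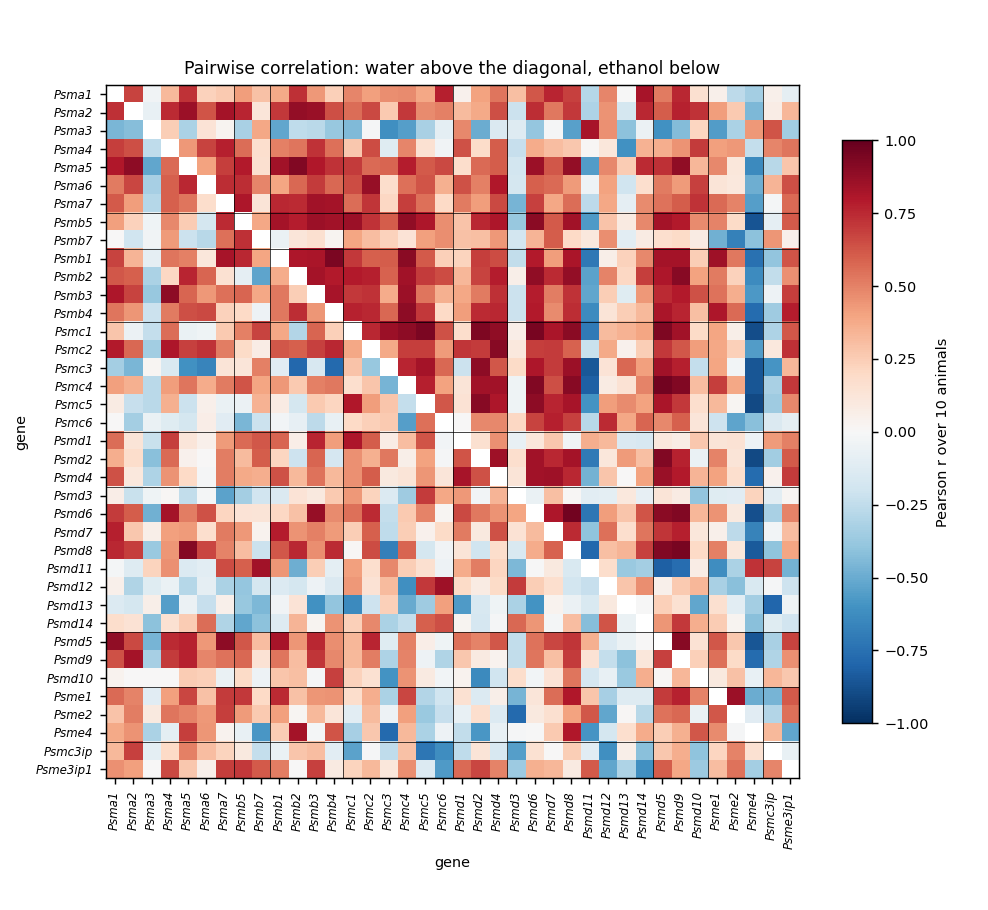
Pearson r over 10 animals for each pair of the 38 genes, with water above the diagonal and ethanol below, ordered by role. The core block at the upper left is mostly red on both sides of the diagonal apart from the lines of Psma3 and Psmb7, whereas the regulatory block is red mainly in water, where the median is 0.41, and 0.22 without water animal 15.

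Several pairs had a high r in both groups. Psma5 and Psmd8 had an r of 0.92 in ethanol and 0.88 in water, Psma2 and Psma5 0.89 and 0.86, and Psmb1 and Psmd5 0.83 and 0.83. The ATPase genes Psmc1 and Psmc5 had 0.80 and 0.94. The activator partners Psme1 and Psme2 had 0.62 and 0.85, but 0.33 in water without animal 18, the highest for both. Without water animal 15, the water value was 0.69 for Psma5 and Psmd8, 0.82 for Psma2 and Psma5, 0.53 for Psmb1 and Psmd5 and 0.80 for Psmc1 and Psmc5. These pairs were picked as high ones, so their values describe them and no more.

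Of the 9 marker lists, the cortical and basolateral one had the largest correlation with the core mean over the 20 animals (r = -0.58, rho = -0.65, r = -0.60 without water animal 15), given as a description. Core values tended to be lower where those markers were higher, and the part of this in the covariation was not tested.

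Each gene was then set against the mean of the core genes, leaving the gene itself out where it belonged to the core. In both groups r was above 0.5 for 20 of 38 genes, of which 10 were core genes, 9 regulatory genes and the other Psme3ip1. With water animal 15 left out, 14 genes were above 0.5 in both. The share of all genes above 0.5 in both groups was not counted, so these counts have no background beside them. Over the 20 animals, with group means subtracted, the median r with the core mean was 0.14 for 10121 genes outside the proteasome. The regulatory genes among the 14 were Psmc2 and Psmc4 of the ATPases, Psmd1 and Psmd4 of the base, Psmd6 of the lid and the chaperone Psmd9. These values belong to the chosen probe sets, and probe sets of the same gene did not always track each other. A second, weaker Psmd9 probe set (mean log2 7.88) had an r of -0.14 in ethanol and 0.20 in water with the chosen one. For the second Psmd7 probe set these were 0.64 and 0.86. Psmc2 had 0.83 in ethanol and 0.82 in water (0.73 without that animal). Of the core genes, Psma2 had 0.68 and 0.90, and Psma4 0.81 and 0.73.

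A few genes did not follow the core. Psma3 had -0.41 in ethanol and -0.18 in water (0.23 without water animal 15), although it is an alpha subunit like Psma2. Its values come from a single probe set, and the one that it shares with Psma3l was not examined. The catalytic Psmb7 had 0.08 and 0.27 (0.07 without water animal 15), whereas the catalytic Psmb5 had 0.57 and 0.87 (0.74 without it). The lid genes Psmd3 and Psmd13 were below 0 in both groups, at -0.09 and -0.22 for Psmd3 and at -0.34 and -0.05 for Psmd13. Without water animal 15 the water values were -0.37 for Psmd3 and -0.47 for Psmd13. Psmc3 had -0.42 in ethanol and 0.43 in water, and the latter turned to -0.76 without water animal 15. In the 9 other water animals, as in the ethanol animals, Psmc3 was therefore higher where the core genes were lower.

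**Figure D5:**
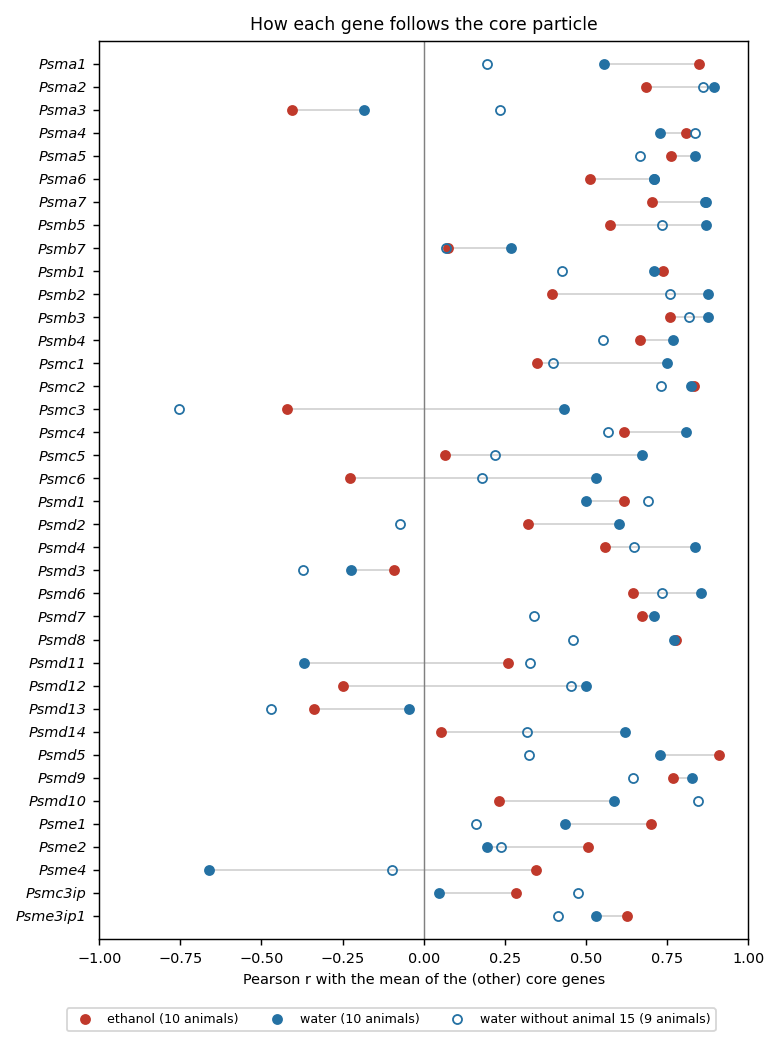
Pearson r of each gene with the mean of the core genes (itself left out) in ethanol animals (red, n = 10), water animals (blue, n = 10) and water animals without animal 15 (open circles, n = 9). Most core genes lie above 0.5 in both groups, Psma3, Psmd3 and Psmd13 lie below 0 in both, and Psmc3 moves from 0.43 to -0.76 when water animal 15 is left out.

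Genes outside the proteasome were ranked by r with the core mean over the 20 animals after the group means were subtracted. The 10 highest of 10121 genes were Iscu (0.90), Eif3k (0.89), Rps6 (0.89), Mocs2 (0.88), Ndufb10 (0.88), Mrps18b (0.88), Elp6 (0.87), Smdt1 (0.87), Elob (0.87) and Ccdc124 (0.87). All 10 stayed within the first 100 without water animal 15, but most moved down. Elob was then at rank 3 (r = 0.90) and Ndufb10 at rank 5 (0.89). The others ran from rank 15 (Iscu, 0.85) to rank 57 (Ccdc124, 0.78). The lowest values over the 20 animals were those of Grin2a (-0.83), an NMDA receptor subunit gene, and Ryr2 (-0.81), a calcium release channel gene. Without water animal 15 they were -0.77 and -0.73.

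Other genes of the pathway were taken from a list of 46, of which 37 were on the array and 36 above the limit on low values. Of these 36, 28 were higher and 8 lower in ethanol (77.8% higher against 57.8% of all probe sets, median 0.02) and none passed an adjusted p under 0.05 (limma), as 0.0215% of all probe sets did. The list was chosen by hand. Without water animal 15 most of the 36 were still higher in ethanol, and so were 58.4% of all probe sets. At an unadjusted p under 0.05 there was 1 higher (Ddi2) and 1 lower (Psmb9), 5.56% against 12.8% of all probe sets. Psmb9, a cutting subunit of the immunoproteasome, ran from 7.15 to 8.16 (median 7.38) in ethanol and from 7.46 to 8.52 (median 7.82) in water. Only 2 ethanol animals were above the water mean, and its levels lay just above the limit of log2 7.14. The difference was -0.36 ± 0.14 (SE; limma p = 0.0146, adjusted p = 0.315). It ran from -0.43 to -0.29 when 1 animal was left out. The other immunoproteasome genes Psmb8 and Psmb10 differed by 0.01 each.

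Nfe2l1, the factor that raises subunit genes when proteasomes fail, ran from 11.47 to 11.61 (median 11.52) in ethanol and from 11.31 to 11.58 (median 11.48) in water. All 10 ethanol animals lay above the water mean, and water animal 15 was lowest. The difference was 0.06 ± 0.04 (SE; limma p = 0.114, adjusted p = 0.476), and 0.04 (limma p = 0.21) without that animal. Ddi2, the protease that cleaves Nfe2l1 into its active form, ran from 9.80 to 10.08 (median 9.95) in ethanol and from 9.62 to 9.99 (median 9.86) in water, a difference of 0.10 ± 0.05 (SE; limma p = 0.0436, adjusted p = 0.377). It was 0.08 (p = 0.0879) without water animal 15, the lowest animal. Akirin2, which carries proteasomes into the nucleus, differed by 0.22 ± 0.12 (SE; limma adjusted p = 0.424), and by 0.14 without that animal. Ube3c, a ubiquitin ligase bound to the proteasome, and Uba6, a ubiquitin-activating enzyme, both differed by 0.08 (limma adjusted p = 0.456 and 0.588).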

How the data were processed

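Per the labels' protocols, total RNA was purified with Trizol and then an RNeasy kit, and labelled cRNA was made with the Affymetrix 3′ IVT Express kit. The authors deposited log2 values per probe set, made with RMA per the submitters' processing notes. Its version, the scanner and the authors' test are not stated in the sources at hand. The base of the log was inferred from the range of 3.82 to 16.16. RMA puts arrays on a common scale, so a shift shared by most genes would not be seen. The number of arrays limits the precision.

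The table held 31099 probe sets, 57 of them controls. Symbols came from the platform annotation (1 symbol for 20826 probe sets, several for 436, none for 9780) and all 38 members matched RefSeq. Probe sets with a mean above the 40th percentile were kept (18625). The difference between ethanol and water came from limma 3.58.1 in R 4.3.3 (lmFit and eBayes, two-sided), and p-values were adjusted by the Benjamini-Hochberg method, with calls at 0.05. The fit was tested on simulated data. Correlations and motif counts used Python 3.11.15, numpy 2.4.6 and pandas 2.3.3, and figures matplotlib 3.10.9. Marker levels are means over a list's genes. The 3′ to 5′ ratio is the mean log2 ratio of the Gapdh and beta-actin control probe sets.

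Values over the animals are given for the 2 genes of each role with the smallest p, Psmb5, Psmb7 and Psmd14. Of other pathway genes up to 6 with the smallest p and Nfe2l1 are named, and 10 genes most like the core mean. The members and lists were chosen with earlier results of these data known. The labels name no batch. The accession order falls into 3 runs with equal numbers of ethanol and water arrays, which were tried as a candidate block. Alternatives covered the filter, scaling, array weights, the eBayes settings, covariates, the choice of probe set and leaving out arrays.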

Additional observations from a re-analysis of the deposited data

Results flagged for a closer look

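Within each group of 10 animals, the gap between the most extreme animal and its nearest neighbour was divided by the group's range and compared with Dixon's critical value for 10 values. Of 82 such groups (the 38 genes and 3 particle means in each group), 15 exceeded it, where chance flags about 1 in 20 groups, or 4.1 of 82. The 15 are not independent, since 11 come from water animal 15.

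Water animal 15 stood apart as the lowest water animal for Psmd9 (0.69), Psmd5 (0.64), Psmd6 (0.635), Psmd8 (0.616), Psmd2 (0.567), Psmc3 (0.56), Psmc4 (0.559), Psmc1 (0.547) and the catalytic Psmb5 (0.478). The regulatory particle mean of the same animal was also apart (0.642), at 11.10 with the next water animal at 11.32. For Psme4 this animal was instead the highest of its group (0.639), with the next at 10.62. The other Psme4 probe sets did not share this. In 1 of them the same animal was the lowest of all 20, and in the other water animal 18 was the highest.

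Water animal 18 stood apart as the highest water animal for Psme1 (0.524) at 11.51, for Psme2 (0.605) at 11.11 and for the mean of the activators (0.551) at 11.03. Ethanol animal 3 stood apart as the lowest ethanol animal for Psme4 (0.542), at 10.17 with the next at 10.52.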

How the results depend on the processing

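No paired analysis was possible because no animal number occurs in both groups. No member passed an adjusted p under 0.05 in any of 32 alternatives; the smallest adjusted p was 0.292 (Psma1, limma, without water animal 19). The 2 genes higher at an unadjusted p under 0.05 became 1 with cyclic loess or with either the 3′ to 5′ ratio or the pan-neuronal score added to the fit, 0 with array weights or without the 3 arrays of lowest correlation, 3 with median centring and 4 when the myelin score was added. Leaving out 1 animal gave 1 to 3: 3 without ethanol animal 9 or water animal 12, and 1 when the animal left out was 1, 2, 3, 5, 6 or 7 (ethanol) or 13, 14, 15, 16 or 21 (water). Of all probe sets, 9.91% to 15.95% were called when 1 animal was left out. The activator median turned to 0.06 with the pan-neuronal score. Small differences changed sign: Psmb1 with cyclic loess (-0.0002022); with the 3′ to 5′ ratio Psmb2 (-0.0014), Psmb5 (-0.0025) and Psmd14 (-0.0014); with array weights Psmb5 (-0.0078), Psmb7 (-0.027) and Psme3ip1 (-0.0079); with cyclic loess Psmb5 (-0.016), Psmd14 (-0.0055) and Psme3ip1 (-0.016); with the myelin score Psmc3ip (-0.017), Psme1 (0.0079) and Psme3ip1 (-0.036); with the pan-neuronal score Psmb7 (-0.024), Psmd14 (-0.015) and Psme1 (0.056); and without the 3 arrays Psmb2 (-0.0062), Psmb5 (-0.021), Psmb7 (-0.024) and Psme3ip1 (-0.0097). When 1 animal was left out, differences ran from -0.011 to 0.050 for Psmb1, -0.013 to 0.051 for Psmb2, -0.012 to 0.026 for Psmb5, -0.00095 to 0.042 for Psmb7, -0.00098 to 0.038 for Psmd14, -0.097 to 0.0029 for Psme1 and -0.024 to 0.022 for Psme3ip1. The cause was not tested. Cyclic loess moved the median of all probe sets from 0.02 to 0.00 and that of the members from 0.03 to 0.00. The core median was negative with cyclic loess (-0.00023), array weights (-0.0044) and without the 3 arrays (-0.01), and the regulatory median ran from 0.02 to 0.08. The median r within the core ran from 0.38 to 0.52 in ethanol and from 0.50 to 0.72 in water over 17 alternatives.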
